A study of Mus musculus with 11 samples.

Results

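Serine, one-carbon and proline metabolism in tumor cDC1s was followed through 10 genes, *Phgdh*, *Psat1*, *Psph*, *Shmt1*, *Shmt2*, *Mthfd1*, *Mthfd2*, *Mthfd1l*, *Aldh18a1* and *Pck2*. They were taken by name from the 24421 genes of the count table, for their place in serine and glycine synthesis, the folate cycle, proline synthesis and the mitochondrial supply of phosphoenolpyruvate. The choice was made with earlier results of these data known. All 10 were above the expression limit, 1 CPM (a count per 1000000 counts of the library) in at least 4 pools, which 10951 genes met. cDC1s are conventional type 1 dendritic cells, the subset specialized in cross-presenting antigen to CD8+ T cells, and here they were sorted out of B16 melanoma, a mouse tumor line that had grown in the skin for 10 to 15 days. Each of the 11 pools held 5000 to 20000 cells from the tumors of 2 to 4 mice of 6 to 14 weeks of age.

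The groups were 4 control pools, 4 XBP1ΔDC pools and 3 XBP1ΔDC IRE1truncDC pools. Control replicates 1 to 3 were XBP1 fl/fl and control replicate 4 was XBP1 fl/fl, IRE1 fl/fl, all of them without Cre. XBP1ΔDC pools were XBP1 fl/fl, CD11c-CRE and lose exon 2 of *Xbp1*, which encodes the transcription factor XBP1. XBP1ΔDC IRE1truncDC pools carried CD11c-CRE on top of XBP1 fl/fl and IRE1 fl/fl and also lose exons 20 to 21 of *Ern1*, which leaves the sensor IRE1 without its RNase domain. All mice carried floxed *Xbp1* on a C57BL/6 background. Cre came from the promoter of *Itgax* (CD11c), so deletion is not limited to cDC1s in these animals. The question put to the data was whether transcripts of these enzymes differ when tumor cDC1s lack XBP1, alone or together with the IRE1 RNase.

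PHGDH, PSAT1 and PSPH make serine from the glycolytic intermediate 3-phosphoglycerate. SHMT2 in mitochondria and SHMT1 in the cytosol split serine into glycine and a carbon unit carried by tetrahydrofolate, which MTHFD2 and MTHFD1L in mitochondria pass on as formate and MTHFD1 uses in the cytosol for purines and thymidylate. ALDH18A1 starts proline synthesis from glutamate, and PCK2 makes phosphoenolpyruvate from oxaloacetate inside mitochondria. Many of these genes are known targets of ATF4, the transcription factor that cells make under the integrated stress response, in which the kinase PERK is the arm of the unfolded protein response that runs beside IRE1 and XBP1.

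Depth was similar in the 3 groups, at 22173308 to 26843486 counts in control pools, 21889074 to 25334289 in XBP1ΔDC pools and 21089065 to 26019797 in XBP1ΔDC IRE1truncDC pools. *Xbp1* was lower in XBP1ΔDC than in control (log2 fold change -0.74 ± 0.0973, SE, edgeR adjusted p = 0.00167), and its value in XBP1ΔDC IRE1truncDC was -0.28 (edgeR adjusted p = 0.324). *Ern1* gave 0.62 in XBP1ΔDC IRE1truncDC against control (edgeR adjusted p = 0.322). Whole-gene counts cannot tell whether the floxed exons are gone. Markers of cDC1s such as *Xcr1*, *Clec9a* and *Batf3* were all detected, and 9 of them summed to 8476 to 10280 CPM in every pool. Sums of markers of T cells, B cells, NK cells and neutrophils stayed at or under 7.82 CPM in every pool, and sums of markers of macrophages and monocytes, cDC2s, plasmacytoid DCs, melanoma cells and stroma each at or under 99.99 CPM. Expression in a pool is a mean over its cells, so a smaller share of cells with a transcript and less transcript per cell cannot be told apart.

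The genes lie apart on the mouse genome (GRCm38, GENCODE vM21), and each is protein coding. *Phgdh* is on chromosome 3 from 98313170 to 98339990, *Psat1* on chromosome 19 from 15904678 to 15947337, *Psph* on chromosome 5 from 129765558 to 129787449 and *Shmt1* on chromosome 11 from 60788104 to 60811718, all on the minus strand. *Shmt2* is on chromosome 10 from 127517123 to 127522444, *Mthfd2* on chromosome 6 from 83305691 to 83325908 and *Aldh18a1* on chromosome 19 from 40550257 to 40588463, also on the minus strand. *Mthfd1* on chromosome 12 from 76255298 to 76319803, *Mthfd1l* on chromosome 10 from 3973118 to 4167081 and *Pck2* on chromosome 14 from 55540266 to 55551242 are on the plus strand. Exons of *Psph*, *Shmt1* and *Shmt2* overlap those of genes on the opposite strand by up to 452 bases (*Cct6a*), 184 bases (*Smcr8*) and 32 bases (*Ndufa4l2*). Whether the counting used strand is not given in the sources used here, so these counts could hold reads of the partner gene. Near-identical reads could also be shared between a gene and a pseudogene of it, which was not checked.

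Because the genes' levels varied together across pools, their promoters were searched for letters bound by the transcription factors of these pathways. All 10 genes had a promoter window in RefSeq (GRCm38.p6), from 250 bases before to 50 bases after a start site, in 11 windows of 300 bases. The ATF4 response element was searched as TGATGNAA, the core of the XBP1 element as GACGTGG and the E-box of MYC-type factors as CACGTG, each on both strands. The ATF4 letters were in 1 of the 10 genes, *Pck2*, at bases 148 to 155 of its window on the minus strand, beside 4.51% of all genes with a window and 3.97% of all 32851 windows. The E-box was in 1 gene, *Aldh18a1*, at bases 192 to 197, beside 8.09% of genes and 7.15% of windows. The XBP1 letters were in 0 of the 10 genes, beside 2.73% of genes and 2.42% of windows. A match is a string of letters, not a shown binding site, and its absence concerns these 300 bases alone. The windows of these 2 genes are printed with the match in capitals, and those of *Phgdh*, *Shmt2* and *Mthfd2* are printed because, with *Aldh18a1*, they are the genes whose control pools did not overlap either deficient line. All run 5′ to 3′ on the gene's strand.
Phgdh, chr3:98339920-98340219, minus strand: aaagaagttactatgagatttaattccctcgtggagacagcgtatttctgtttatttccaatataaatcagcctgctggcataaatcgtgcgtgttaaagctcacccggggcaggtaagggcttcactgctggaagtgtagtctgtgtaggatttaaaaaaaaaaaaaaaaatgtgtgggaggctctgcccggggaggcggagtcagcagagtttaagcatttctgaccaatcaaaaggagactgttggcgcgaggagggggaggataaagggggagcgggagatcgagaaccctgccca
Shmt2, chr10:127522395-127522694, minus strand: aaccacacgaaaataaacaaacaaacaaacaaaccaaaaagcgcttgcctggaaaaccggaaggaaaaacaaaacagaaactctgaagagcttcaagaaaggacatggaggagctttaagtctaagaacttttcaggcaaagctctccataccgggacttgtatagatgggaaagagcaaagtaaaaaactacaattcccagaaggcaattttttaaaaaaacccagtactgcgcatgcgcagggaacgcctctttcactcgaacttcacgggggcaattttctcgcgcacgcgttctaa
Mthfd2, chr6:83317555-83317854, minus strand: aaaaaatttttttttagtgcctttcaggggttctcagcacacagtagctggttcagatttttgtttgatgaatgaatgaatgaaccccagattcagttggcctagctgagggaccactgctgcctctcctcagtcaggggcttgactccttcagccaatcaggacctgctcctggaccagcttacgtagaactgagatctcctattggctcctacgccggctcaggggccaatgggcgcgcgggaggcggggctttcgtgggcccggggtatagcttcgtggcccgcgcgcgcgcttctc
Aldh18a1, chr19:40588414-40588713, minus strand: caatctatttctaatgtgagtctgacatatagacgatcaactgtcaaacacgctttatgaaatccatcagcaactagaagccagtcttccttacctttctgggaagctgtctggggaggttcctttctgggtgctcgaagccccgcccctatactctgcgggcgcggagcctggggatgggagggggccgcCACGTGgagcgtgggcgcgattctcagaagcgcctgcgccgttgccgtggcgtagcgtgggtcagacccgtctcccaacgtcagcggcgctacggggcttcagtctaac
Pck2, chr14:55540016-55540315, plus strand: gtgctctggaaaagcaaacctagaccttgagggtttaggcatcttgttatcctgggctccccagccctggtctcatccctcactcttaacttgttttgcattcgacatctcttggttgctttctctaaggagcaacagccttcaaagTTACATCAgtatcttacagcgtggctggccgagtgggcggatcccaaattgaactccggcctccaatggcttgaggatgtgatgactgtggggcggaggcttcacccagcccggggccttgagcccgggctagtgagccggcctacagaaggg

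In control tumor cDC1s, *Mthfd2* and *Shmt2*, which act in mitochondria, had the most transcript per length of the 10, in CPM per kilobase of annotated exon. *Mthfd2* led with a level of 45.0 ± 4.57 (SD, n = 4) CPM per kilobase, ahead of *Shmt2* at 28.5 ± 1.14 and *Aldh18a1* at 24.6 ± 2.85. *Psat1* at 13.1 ± 2.35, *Phgdh* at 11.8 ± 2.78 and the cytosolic *Mthfd1* at 11.1 ± 1.38 formed a middle group whose control pools overlapped. *Mthfd1l* at 5.49 ± 0.715 and *Psph* at 4.97 ± 0.385 came next, and *Pck2* at 2.39 ± 0.465 and *Shmt1* at 1.81 ± 0.277 were lowest. Each of these last pairs overlapped between pools, as did *Shmt2* and *Aldh18a1*. *Phgdh* stood above *Psat1* in the mean of both deficient lines, the 1 change of order, and their pools overlapped there too. These lengths join all annotated isoforms of a gene, 7806 bases for *Pck2*, so an order set by them depends on which isoforms the cells use.

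**Figure D1:**
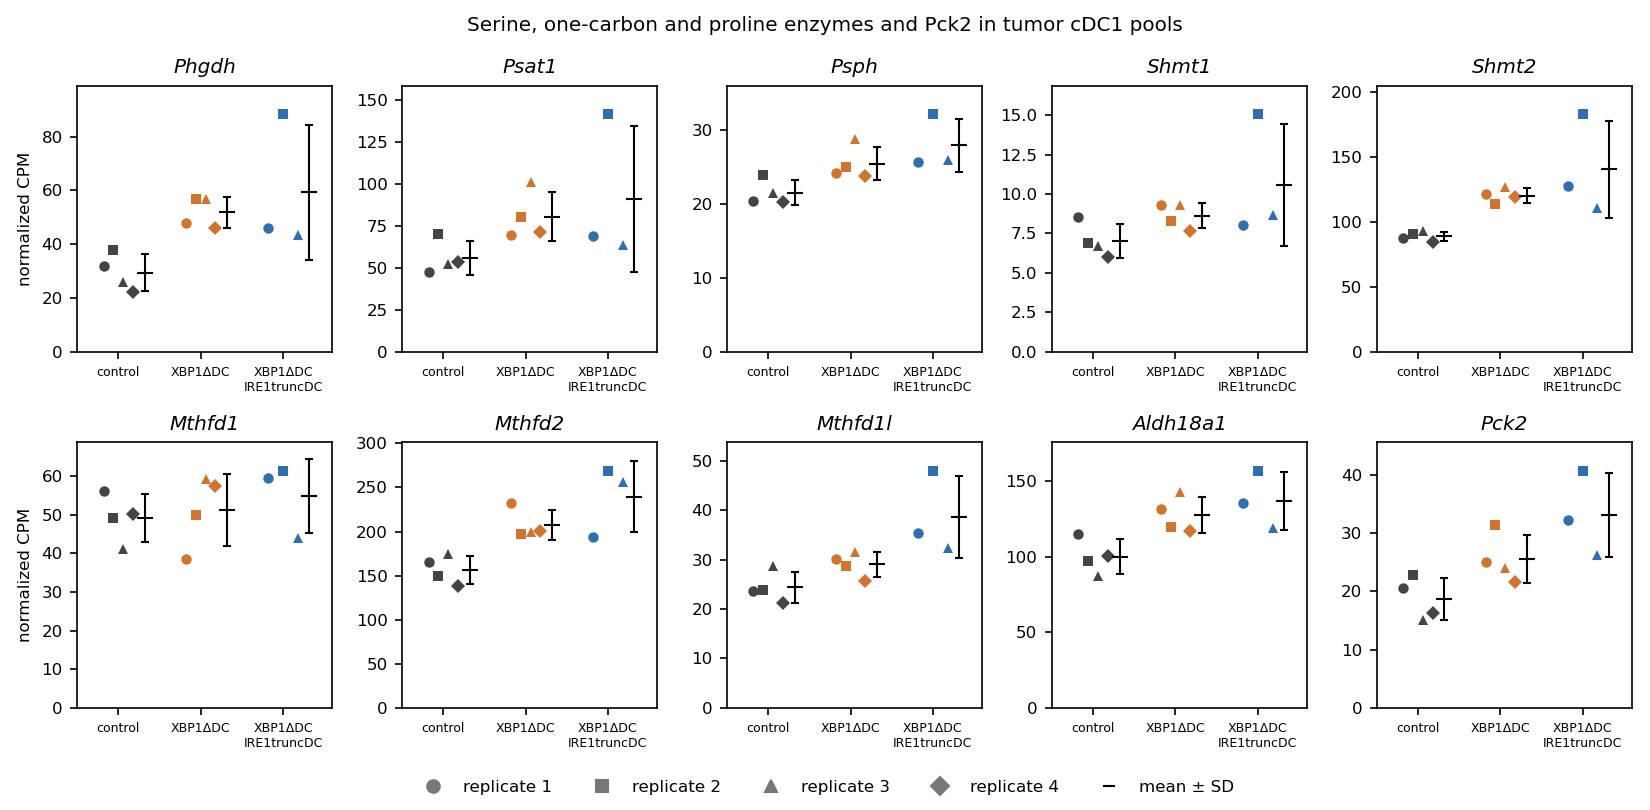
Normalized CPM of the 10 genes in each pool by genotype, with 4 control, 4 XBP1ΔDC and 3 XBP1ΔDC IRE1truncDC pools marked by replicate and the mean ± SD drawn in black beside them. *Phgdh*, *Shmt2*, *Mthfd2* and *Aldh18a1* have every deficient pool above every control pool, and the square of XBP1ΔDC IRE1truncDC replicate 2 is the highest point in all 10 panels.

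The enzymes of serine synthesis had higher mean levels in XBP1ΔDC than in control tumor cDC1s, by the most in *Phgdh*, but with edgeR fitted to all 3 genotypes no gene of the 10 passed the adjusted test. *Phgdh*, the entry enzyme of serine synthesis, measured 31.7, 37.9, 25.8 and 22.2 CPM in control replicates 1 to 4 and 47.8, 56.9, 56.8 and 46.0 CPM in XBP1ΔDC replicates 1 to 4. The lowest XBP1ΔDC pool was above the highest control pool. The log2 fold change was 0.82 ± 0.223 (SE, edgeR adjusted p = 0.187), a 1.76-fold difference. *Psat1*, the aminotransferase of the pathway, was at 47.3, 70.2, 51.9 and 53.3 CPM in controls and at 69.4, 80.2, 101 and 71.2 CPM in XBP1ΔDC. Control replicate 2 reached into the XBP1ΔDC range, and the log2 fold change was 0.53 ± 0.230 (SE, edgeR adjusted p = 0.622). *Psph*, which takes the phosphate off serine in the last step, was between 20.3 and 23.9 CPM in controls and between 23.8 and 28.8 CPM in XBP1ΔDC. The groups touched at the edge, and the log2 fold change was 0.24 ± 0.115 (SE, edgeR adjusted p = 0.678).

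Among the folate enzymes, the mitochondrial *Shmt2* and *Mthfd2* separated the groups. The mitochondrial *Mthfd1l* and the cytosolic *Shmt1* and *Mthfd1* did not. *Shmt2* measured 87.5, 90.4, 92.6 and 84.4 CPM in control replicates 1 to 4 and 121, 114, 127 and 119 CPM in XBP1ΔDC replicates 1 to 4. Controls were tight, all XBP1ΔDC pools were above them, and the log2 fold change was 0.44 ± 0.124 (SE, edgeR adjusted p = 0.219). *Mthfd2* was at 165, 149, 174 and 139 CPM in controls and at 233, 197, 199 and 201 CPM in XBP1ΔDC. Again no XBP1ΔDC pool reached down to the controls, with a log2 fold change of 0.40 ± 0.1096 (SE, edgeR adjusted p = 0.185). *Mthfd1l*, which releases formate from mitochondria, had a log2 fold change of 0.25 ± 0.140 (SE, edgeR adjusted p = 0.763), and its groups overlapped. *Shmt1*, the cytosolic counterpart of *Shmt2*, gave 0.30 ± 0.217 (SE, edgeR adjusted p = 0.863) on 5.98 to 8.52 CPM in controls. *Mthfd1* was at 41.2 to 56.1 CPM in controls and 38.5 to 59.2 CPM in XBP1ΔDC, a log2 fold change of 0.06 ± 0.152 (SE, edgeR adjusted p = 0.98). Leaving out control replicate 3 or XBP1ΔDC replicate 3 gave -0.02 and -0.01 for *Mthfd1*.

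*Aldh18a1*, the entry enzyme of proline synthesis, measured 115, 97.3, 87.5 and 100.4 CPM in control replicates 1 to 4 and 132, 119.6, 143 and 117 CPM in XBP1ΔDC replicates 1 to 4. The groups did not overlap, by a margin of less than 2 CPM, and the log2 fold change was 0.35 ± 0.108 (SE, edgeR adjusted p = 0.295). *Pck2* was at 20.5, 22.8, 15.01 and 16.3 CPM in controls and at 25.1, 31.4, 23.9 and 21.7 CPM in XBP1ΔDC. XBP1ΔDC replicate 4 lay under control replicate 2, and the log2 fold change was 0.45 ± 0.175 (SE, edgeR adjusted p = 0.518).

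Counts over the 10 genes, here and in the other comparisons, describe a list chosen with earlier results of these data known. They are not an independent test of the list. Taken by counts, all 10 genes were higher in XBP1ΔDC than in control in the fitted value, beside 51.2% of the genes tested. Calls, an adjusted p under 0.05 with a fold change above 1.5, numbered 0 of 10 with edgeR, where 0.493% of the genes tested were called. Without adjustment 6 of the 10 had p under 0.05, all higher, beside 2.67% of the genes tested that were higher at that level. Every XBP1ΔDC pool was above every control pool for 4 of the 10, beside 1.63% of the genes tested. The median log2 fold change was 0.38 for the 10 genes and 0.005 for all genes tested. DESeq2 called 1 of the 10, *Phgdh* (adjusted p = 0.0199), and gave *Mthfd2* an adjusted p of 0.0454 at a fold under 1.5, where it called 0.694% of the genes tested. voom with limma called 0. With edgeR, *Phgdh* was also called when XBP1ΔDC and control were fitted alone (adjusted p = 0.0412) and when XBP1ΔDC IRE1truncDC replicate 2 was left out of the fit (adjusted p = 0.0258), where the standard error was 0.153. In the same 2 fits *Shmt2* had an adjusted p of 0.012 and 0.0107 at a fold under 1.5.

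**Figure D2:**
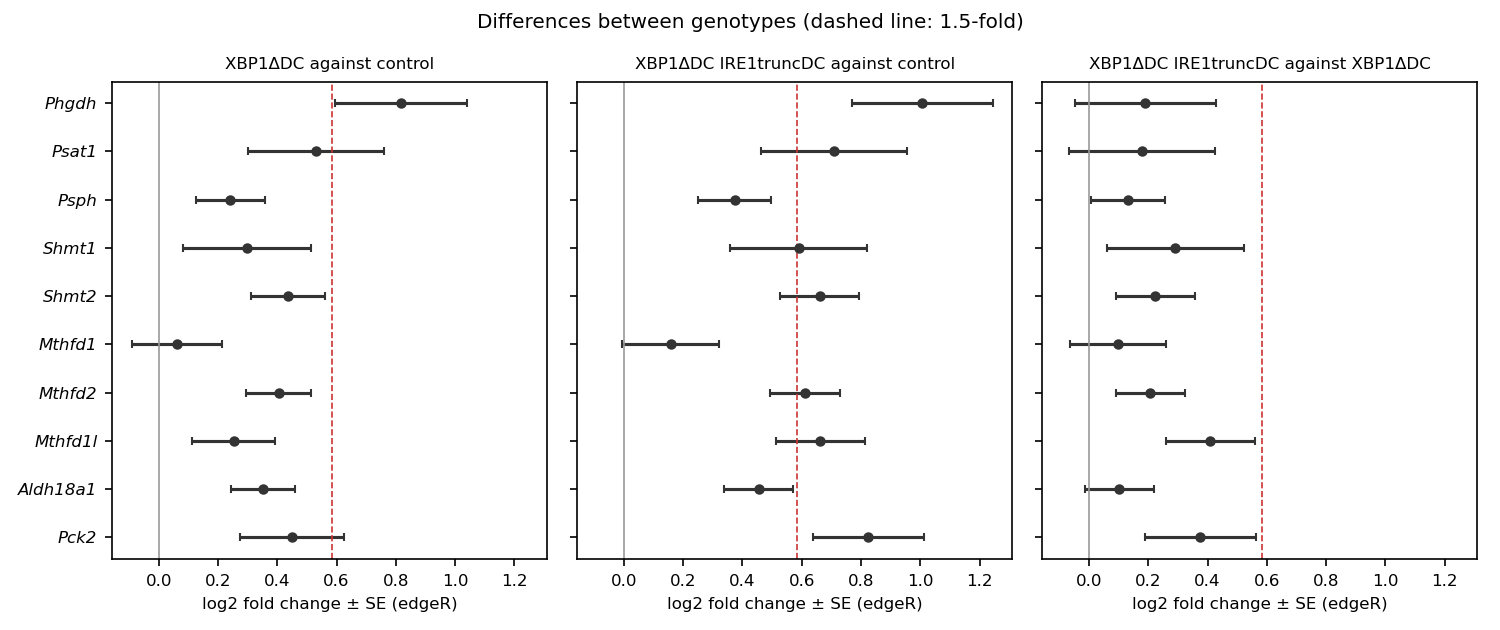
Log2 fold change with its standard error from edgeR for the 10 genes in the 3 comparisons, with a line at 0 and a dashed line at 1.5-fold. All 30 points are on the positive side, from 0.06 to 0.82 in XBP1ΔDC against control, 0.16 to 1.01 in XBP1ΔDC IRE1truncDC against control and 0.10 to 0.41 between the deficient lines, and 0 of them passed the adjusted test in this fit of the 3 genotypes.

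In XBP1ΔDC IRE1truncDC cDC1s the same 10 genes were compared with the same control pools, so the values of both lines share their reference. *Phgdh* was at 46.0, 88.2 and 43.3 CPM in XBP1ΔDC IRE1truncDC replicates 1 to 3. All 3 pools were above the controls, replicate 2 far above the others, and the log2 fold change was 1.01 ± 0.237 (SE, edgeR adjusted p = 0.111). *Psat1* was at 68.7, 141 and 63.5 CPM, with replicates 1 and 3 inside the control range, and had a log2 fold change of 0.71 ± 0.246 (SE, edgeR adjusted p = 0.301). *Psph* was at 25.6, 32.1 and 26.0 CPM, above all controls, with a log2 fold change of 0.37 ± 0.124 (SE, edgeR adjusted p = 0.274).

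The mitochondrial folate enzymes came nearest to the threshold in XBP1ΔDC IRE1truncDC. *Mthfd2* was at 194, 269 and 256 CPM in XBP1ΔDC IRE1truncDC replicates 1 to 3, a log2 fold change of 0.61 ± 0.117 (SE, edgeR adjusted p = 0.0505). *Shmt2* was at 128, 182 and 111 CPM, a log2 fold change of 0.66 ± 0.133 (SE, edgeR adjusted p = 0.0563). *Mthfd1l* was at 35.4, 48.0 and 32.3 CPM against 23.6, 23.8, 28.8 and 21.2 CPM in control replicates 1 to 4, a log2 fold change of 0.66 ± 0.150 (SE, edgeR adjusted p = 0.1). For these 3 genes no XBP1ΔDC IRE1truncDC pool overlapped the controls. The cytosolic enzymes did overlap them. *Shmt1* was at 8.01, 15.05 and 8.65 CPM, with replicate 1 inside the control range, and had a log2 fold change of 0.59 ± 0.232 (SE, edgeR adjusted p = 0.351). *Mthfd1* was at 59.3, 61.4 and 43.9 CPM, a log2 fold change of 0.16 ± 0.163 (SE, edgeR adjusted p = 0.801).

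*Pck2* was at 32.3, 40.7 and 26.3 CPM in XBP1ΔDC IRE1truncDC replicates 1 to 3, all above the controls, with a log2 fold change of 0.82 ± 0.187 (SE, edgeR adjusted p = 0.1). *Aldh18a1* was at 136, 157 and 119 CPM, again above the controls, with a log2 fold change of 0.45 ± 0.116 (SE, edgeR adjusted p = 0.153). All 10 genes were thus higher in the fitted value, beside 49.4% of the genes tested, and 0 were called by edgeR, where 0.21% were called. Without adjustment 9 of the 10 had p under 0.05, all higher, beside 5.73% of the genes tested that were higher at that level. All XBP1ΔDC IRE1truncDC pools were above all controls for 7 of the 10, beside 4.31% of the genes tested, and 4 of the 10 had every pool of both lines above every control, beside 0.584%. The median log2 fold change was 0.64 for the 10 genes and -0.0031 for all genes tested.

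How many of the 10 were called in XBP1ΔDC IRE1truncDC turned on the test. DESeq2 called 5, *Mthfd2* (adjusted p = 0.000488), *Shmt2* (0.000999), *Phgdh* (0.00396), *Pck2* (0.00589) and *Mthfd1l* (0.00761), where it called 0.858% of the genes tested. It also gave *Aldh18a1* an adjusted p of 0.024 at a fold under 1.5. voom with limma called 0. *Mthfd2*, which missed the threshold narrowly, was called under 5 other settings of edgeR, with adjusted p between 0.0193 and 0.0499, and *Shmt2* was called without XBP1ΔDC IRE1truncDC replicate 3 (adjusted p = 0.0315).

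A large part of the difference in XBP1ΔDC IRE1truncDC came with 1 pool. XBP1ΔDC IRE1truncDC replicate 2 had the highest level of all 11 pools for all 10 genes, at a mean z-score of 1.90 over the genes, and the next pool, XBP1ΔDC replicate 3, was at 0.65. At the other end, control replicate 4 had a mean z-score of -1.20 and the lowest level of all pools for 6 of the 10. This control is the only one with floxed *Ern1*. Without XBP1ΔDC IRE1truncDC replicate 2, the median log2 fold change of XBP1ΔDC IRE1truncDC against control was 0.39 in place of 0.64, all 10 genes were still higher, 6 had p under 0.05 without adjustment, and 0 were called. *Phgdh* then gave 0.60 (edgeR adjusted p = 0.224), *Psat1* 0.25 (edgeR adjusted p = 0.643) and *Pck2* 0.65 (edgeR adjusted p = 0.216). The remaining 2 pools were still above every control pool for 7 of the 10 genes. Without control replicate 4 the median was 0.58, and 0.35 in XBP1ΔDC against control.

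**Figure D3:**
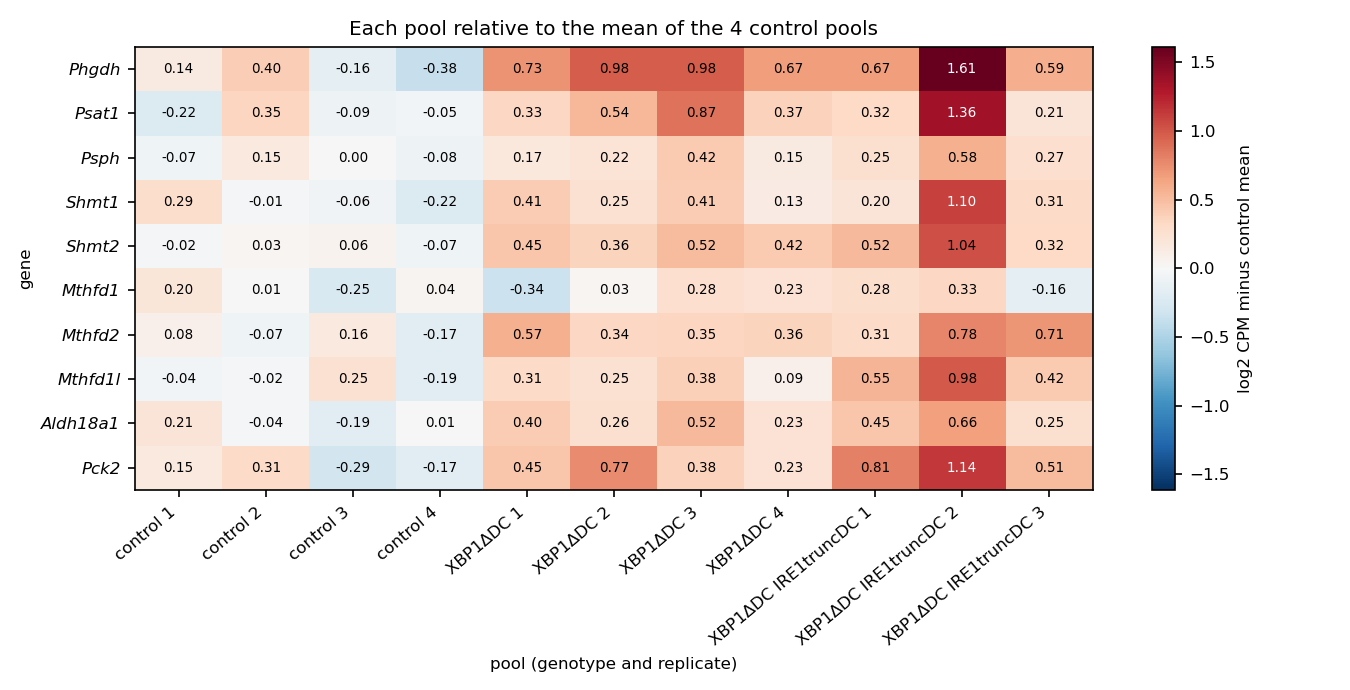
Log2 CPM of each gene (rows) in each pool (columns) minus the mean of the 4 control pools, red for higher and blue for lower. Of the 40 values in XBP1ΔDC pools 39 gave a CPM above the control mean and of the 30 in XBP1ΔDC IRE1truncDC pools 29 did, the exceptions being *Mthfd1* in XBP1ΔDC replicate 1 and XBP1ΔDC IRE1truncDC replicate 3, and the column of XBP1ΔDC IRE1truncDC replicate 2 is the darkest.

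Other transcripts in that pool were set beside these values. *Mki67*, a marker of dividing cells, was at 18.03 CPM in XBP1ΔDC IRE1truncDC replicate 2, the lowest of the 11 pools, and at 98.8 to 144 CPM in controls. The 16 cell cycle genes, *Mki67* among them, went the other way as a sum, at 2718 CPM in that pool, the highest of the 11. Their sum was 1870 to 2531 CPM in controls. Of 16 cell cycle genes tested, 0 had an adjusted p under 0.05 in any comparison with edgeR, and 1 had an unadjusted p under 0.05 in XBP1ΔDC IRE1truncDC against control. Genes of mature, CCR7-expressing dendritic cells (*Ccr7*, *Fscn1*, *Cd83*, *Il12b*, *Relb* and *Ccl22*) had positive log2 fold changes in both lines, all 6 of them, with summed levels of 4316 to 7166 CPM in controls, 4777 to 8678 CPM in XBP1ΔDC and 6559 to 11980 CPM in XBP1ΔDC IRE1truncDC pools. Of these 6, 5 had an unadjusted p under 0.05 in XBP1ΔDC IRE1truncDC against control and 1 in XBP1ΔDC. The share of the genes tested that were higher at that level was 5.73% and 2.67%. Of the 6, 0 had an adjusted p under 0.05. In XBP1ΔDC IRE1truncDC replicate 2 this sum was 6559 CPM, the lowest of its group. The 8 macrophage and monocyte genes tested were also all higher in XBP1ΔDC than in control, without passing the test, with summed levels of 26.8 to 45.8 CPM in controls, 32.2 to 99.99 CPM in XBP1ΔDC and 29.7 to 82.5 CPM in XBP1ΔDC IRE1truncDC pools. XBP1ΔDC replicate 3 had the highest of these sums and XBP1ΔDC IRE1truncDC replicate 2 the next, and they are also the 2 pools with the highest mean z-score of the enzymes. The 3 plasmacytoid DC genes were lower in the fitted value in both lines, and 0 of them had an adjusted p under 0.05. Unadjusted p was under 0.05 for 2 of them in XBP1ΔDC IRE1truncDC against control and for 0 in XBP1ΔDC. Their summed level was 38.8 to 47.7 CPM in controls, 31.1 to 35.3 CPM in XBP1ΔDC and 22.5 to 38.6 CPM in XBP1ΔDC IRE1truncDC pools, without overlap of either line with the controls, and lowest in XBP1ΔDC IRE1truncDC replicate 2. Melanoma genes summed to 8.96 to 60.9 CPM in controls, 12.2 to 64.7 CPM in XBP1ΔDC and 8.74 to 11.02 CPM in XBP1ΔDC IRE1truncDC pools, and of the 4 tested 3 had an unadjusted p under 0.05 and 0 an adjusted p under 0.05 in XBP1ΔDC IRE1truncDC against control. Stroma genes summed to 7.07 to 12.7 CPM in controls, 7.27 to 32.95 CPM in XBP1ΔDC and 8.835 to 11.88 CPM in XBP1ΔDC IRE1truncDC pools. Of the 3 tested, 1 had an unadjusted p under 0.05 in XBP1ΔDC against control and 3 did between the deficient lines. Between the lines 1 of the 3 was higher in XBP1ΔDC IRE1truncDC and 2 were lower. An adjusted p under 0.05 was reached by 0 of them. Of the 10951 genes tested, 628 were higher and 596 lower with an unadjusted p under 0.05 in XBP1ΔDC IRE1truncDC against control. These numbers were 292 and 542 in XBP1ΔDC against control, and 305 and 274 between the lines. The part of these cells or states in the enzyme levels was not tested.

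The direct comparison of the deficient lines gave no call. *Mthfd1l* had the largest value, a log2 fold change of 0.41 ± 0.150 in XBP1ΔDC IRE1truncDC against XBP1ΔDC (SE, edgeR adjusted p = 0.807), with all 3 XBP1ΔDC IRE1truncDC pools above the XBP1ΔDC pools at 30.0, 28.8, 31.6 and 25.7 CPM. It was the 1 gene of 10 with such a separation, beside 3.11% of the genes tested, and with an unadjusted p under 0.05, beside 2.79% that were higher at that level. Calls by edgeR, voom and DESeq2 were 0 of 10, and edgeR called 0.0731% of the genes tested. The fitted values were positive for all 10, from 0.10 to 0.41, beside 50.4% of the genes tested. Without XBP1ΔDC IRE1truncDC replicate 2 they were positive for 5 of 10, with a median of 0 in place of 0.20, and *Phgdh* and *Psat1* became -0.22 and -0.29.

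Levels of the enzymes varied together over the 11 pools. Pearson's r of log2 CPM between 2 of the 10 genes had a median of 0.80 over 45 pairs, from -0.01 to 0.94. *Psat1* and *Psph* had the highest value, and *Mthfd1* and *Mthfd2* the lowest. Deviations from the group means, which leave the genotype out, had a median r of 0.57, from -0.46 to 0.94. Without XBP1ΔDC IRE1truncDC replicate 2 the median was 0.40, from -0.64 to 0.93. The pools share the scaling and the genotype, and these values are a description.

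The genes nearest in pattern were taken for the 3 enzymes with the smallest p, *Shmt2*, *Mthfd1l* and *Mthfd2*. *Ddit3*, which encodes the stress factor CHOP, had the highest r with *Shmt2* (0.96 over 11 pools), followed by the tRNA synthetase genes *Sars* (0.96) and *Gars* (0.95). *Eif3c* (0.94), *Sel1l* (0.93) and *Shmt2*, 1 of the 10, (0.91) were nearest to *Mthfd1l*. *Cox6a2* (0.95), *Eif2s2* (0.94) and *Traf2* (0.93) were nearest to *Mthfd2*. *Cox6a2* had 1 to 4 reads in each control pool and 20 to 104 in the deficient pools, so its pattern follows the Cre-positive genotype as much as the level of *Mthfd2*.

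**Figure D4:**
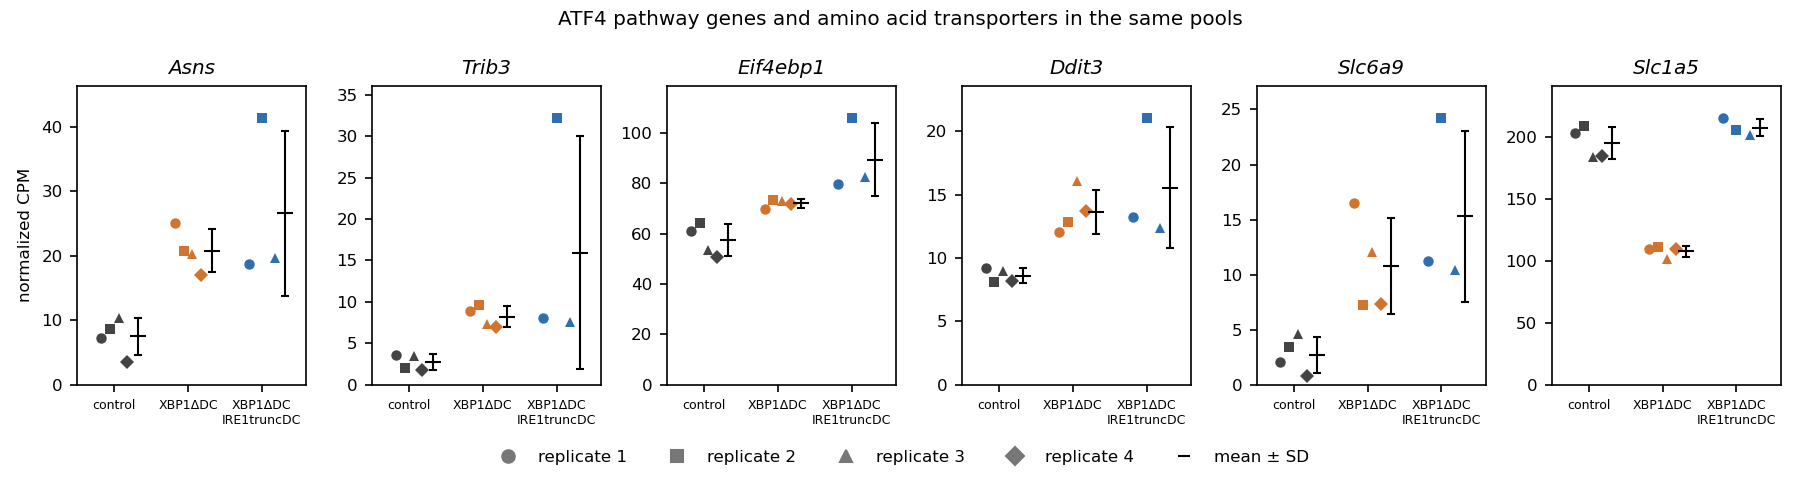
Normalized CPM of 4 genes of the ATF4 pathway (*Asns*, *Trib3*, *Eif4ebp1*, *Ddit3*) and 2 amino acid transporter genes (*Slc6a9*, *Slc1a5*) in each pool by genotype, with the mean ± SD in black. *Asns* is at 3.57 to 10.4 CPM in controls and 16.9 to 41.3 CPM in the deficient pools, while *Slc1a5* is low in XBP1ΔDC pools alone.

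Some genes of the ATF4 pathway outside the 10 passed the test. In XBP1ΔDC IRE1truncDC against control, 3 of 17 tested were called higher, beside 0.0639% of the genes tested. Fitted values were positive for 15 of 17, with a median of 0.46, beside 49.4% of the genes tested. Without adjustment 11 had p under 0.05 and were higher, beside 5.73% of the genes tested that were higher at that level. In XBP1ΔDC against control 15 of 17 were also positive, with a median of 0.27, beside 51.2% of the genes tested. There 5 had an unadjusted p under 0.05 and were higher, beside 2.67%, and 1 was lower at that level. Against control, *Atf4* itself gave 0.35 in XBP1ΔDC (edgeR adjusted p = 0.235) and 0.30 in XBP1ΔDC IRE1truncDC (edgeR adjusted p = 0.319). *Asns*, asparagine synthetase, measured 7.25, 8.66, 10.4 and 3.57 CPM in control replicates 1 to 4 and 18.7, 41.3 and 19.7 CPM in XBP1ΔDC IRE1truncDC replicates 1 to 3. It rose by 1.83 on the log2 scale (± 0.334 SE, edgeR adjusted p = 0.0396). *Trib3*, a pseudokinase gene induced by ATF4 and CHOP, was at 1.79 to 3.56 CPM in controls and at 8.01, 32.2 and 7.61 CPM in XBP1ΔDC IRE1truncDC, and rose by 2.55 ± 0.465 (SE, edgeR adjusted p = 0.0396). *Eif4ebp1*, an inhibitor of cap-dependent translation, was at 50.8 to 64.2 CPM in controls and at 79.8, 106 and 82.3 CPM in XBP1ΔDC IRE1truncDC, and rose by 0.64 ± 0.112 (SE, edgeR adjusted p = 0.0312).

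Replicate 2 was again the highest XBP1ΔDC IRE1truncDC pool for all 3, and the groups did not overlap. Without it the values were 1.36 (edgeR adjusted p = 0.116), 1.53 (edgeR adjusted p = 0.0812) and 0.50 (edgeR adjusted p = 0.0817). Leaving out any pool at a time, the adjusted p of *Asns* was above 0.05 in 10 of 11 fits (0.0467 to 0.123), that of *Trib3* in 9 (0.0315 to 0.137) and that of *Eif4ebp1* in 8 (0.0455 to 0.0911). DESeq2 gave 5 of the 17 an adjusted p under 0.05, these 3 with *Ddit3* and *Chac1*, and voom gave 1, *Eif4ebp1*. In XBP1ΔDC against control the same 3 genes had positive values that did not pass with edgeR, *Asns* at 1.47 (edgeR adjusted p = 0.0522), *Trib3* at 1.60 (edgeR adjusted p = 0.191) and *Eif4ebp1* at 0.33 (edgeR adjusted p = 0.346). DESeq2 passed *Asns* (adjusted p = 0.000328) and *Trib3* (0.0134) there, and edgeR without the expression filter passed *Asns* (adjusted p = 0.0427). Both also passed with edgeR when XBP1ΔDC and control were fitted alone (adjusted p = 0.033 and 0.0254) and without XBP1ΔDC IRE1truncDC replicate 2 (adjusted p = 0.0186 and 0.0119). *Eif2ak3*, which encodes PERK and is listed with the pathway as its kinase, went the other way and fell by 0.71 ± 0.124 in XBP1ΔDC (SE, edgeR adjusted p = 0.0151). Among the fits without a pool, that call was lost without control replicate 1, control replicate 3 or XBP1ΔDC replicate 3 (edgeR adjusted p = 0.0537, 0.0551 and 0.0658). In XBP1ΔDC IRE1truncDC against control *Eif2ak3* gave -0.30 (edgeR adjusted p = 0.414), with every pool under every control pool.

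Transporters of serine, glycine and other neutral amino acids split. *Slc6a9*, a glycine transporter gene, was at 2.08, 3.41, 4.56 and 0.759 CPM in controls, at 16.5, 7.27, 12.02 and 7.38 CPM in XBP1ΔDC and at 11.3, 24.2 and 10.4 CPM in XBP1ΔDC IRE1truncDC. No deficient pool overlapped the controls, with log2 fold changes of 1.99 ± 0.471 (SE, edgeR adjusted p = 0.0905) and 2.49 ± 0.496 (SE, edgeR adjusted p = 0.0556). *Slc1a5*, a transporter of glutamine, serine and alanine, had 201 to 215 CPM in XBP1ΔDC IRE1truncDC, 184 to 208 CPM in controls and 101 to 111 CPM in XBP1ΔDC. It fell by 0.86 in XBP1ΔDC against control and rose by 0.95 in XBP1ΔDC IRE1truncDC against XBP1ΔDC (edgeR adjusted p = 9.88e-05 and 4.36e-05). DESeq2 called *Slc6a9* in both lines against control. In XBP1ΔDC IRE1truncDC edgeR also called it with legacy=FALSE (adjusted p = 0.044) and without the expression filter (adjusted p = 0.0466). The other 6 transporters tested did not pass in any comparison with edgeR, voom or DESeq2.

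Of the enzymes next to the 10 in the same pathways, 1 had an adjusted p under 0.05 with edgeR. *Oat*, which makes the proline precursor from ornithine, was at 208, 224, 237 and 200.4 CPM in controls and at 175, 165, 177 and 167 CPM in XBP1ΔDC. It fell by 0.35 ± 0.0703 (SE, edgeR adjusted p = 0.0368), under the fold limit, opposite to *Aldh18a1*, and 8 of the 11 fits without a pool put its adjusted p above 0.05 (0.0378 to 0.137). In XBP1ΔDC IRE1truncDC against control *Oat* gave -0.22 (edgeR adjusted p = 0.289), with every pool under every control pool. *Pycr1*, the last step of proline synthesis, was at 0.402 to 2.695 CPM in controls and at 4.14, 4.71 and 3.04 CPM in XBP1ΔDC IRE1truncDC (log2 fold change 1.36 ± 0.527, SE, edgeR adjusted p = 0.344). With edgeR, 0 of 12 other folate cycle genes tested had an adjusted p under 0.05 in any comparison. The share of the genes tested was 0.895%, 0.356% and 0.0731% in the 3 comparisons. The count was also 0 for 5 genes of the methionine cycle, 13 of purine synthesis and 6 of phosphoenolpyruvate supply and glycolysis. So it was for 4 of glutathione synthesis and cystine uptake, 4 other glycine and serine genes and 4 regulators that included *Myc* and *Mtor*. voom with limma and DESeq2 gave 0 for these lists as well. Unadjusted p was under 0.05 with edgeR for 1 gene each of the purine and glutathione lists in XBP1ΔDC against control. In XBP1ΔDC IRE1truncDC against control these were 2 and 1, and between the lines 0. The purine genes were *Impdh1*, lower in both lines (log2 fold change -0.56 and -0.70), and *Impdh2*, higher in XBP1ΔDC IRE1truncDC (0.18). The glutathione list gave the cystine transporter gene *Slc7a11* in XBP1ΔDC (1.29) and *Gclc* in XBP1ΔDC IRE1truncDC (0.62), both higher. With voom the unadjusted p of *Slc7a11* was 0.19. The median log2 fold change of the 12 folate cycle genes was -0.04 in XBP1ΔDC and 0.05 in XBP1ΔDC IRE1truncDC against control, and that of the 13 purine synthesis genes was 0.07 and -0.03.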

How the data were processed

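RNA was amplified by SMART-seq and sequenced from a single end. The deposited count table holds whole-number reads per gene, which the authors obtained with Trimmomatic 0.39, STAR 2.7.3a on mm10 (submitters' processing notes) and HTSeqCount, without normalization. The deposited log2 table was normalized by the authors with limma 3.42.2. It holds 11118 genes, among them all 10951 tested here. It was checked against the counts, differed from voom's log2 CPM by at most 0.000691, and was not used for tests.

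The analysis used edgeR 4.0.16 in R 4.3.3. The tool, the filter (above 1 CPM in at least 4 pools) and the thresholds were those of the study's methods, while TMM scaling and a quasi-likelihood fit of the 3 genotypes were chosen here. P-values were adjusted by Benjamini-Hochberg over all 10951 genes tested, and a call required a fold change above 1.5 as well as an adjusted p under 0.05. Standard errors were obtained as the log2 fold change over the root of its F statistic. All CPM are TMM-normalized, with a prior count of 2 on the log2 scale. Alternatives were voom (limma 3.58.1), DESeq2 1.42.0, edgeR with legacy=FALSE, other scalings and filters, 2-group fits, a replicate block and each pool left out. Scripts were tested on simulated data. Pools of a genotype differed by more than counting error (chi-square per degree of freedom 21.2 to 67.3). The labels do not say that pools came from separate experiments, so p-values measure the spread between pools.

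The 10 genes and the pathway and marker lists were chosen with earlier results of these data known. Named genes are the 10, the genes of each pathway list with an adjusted p under 0.05 in any comparison or the 2 smallest p otherwise, *Xbp1*, *Ern1* and the 3 genes nearest in pattern to 3 of the enzymes. Some marker and list genes are named as examples. Positions are from GENCODE vM21 and promoters from RefSeq. Figures used python 3.11.15 and matplotlib 3.10.9.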

Additional observations from a re-analysis of the deposited data

Results flagged for a closer look

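In 4 of the 80 gene and genotype combinations tested (40 genes in the 2 groups of 4 pools, 5%), 1 pool stood away from the other 3 by more than Dixon's limit for the gap over the group's range. Chance gives about 1 in 20. *Mthfd2* was at 232.7 CPM in XBP1ΔDC replicate 1 and at 197.3 to 200.9 CPM in the other XBP1ΔDC pools. *Slc25a32*, the mitochondrial folate carrier gene, was at 9.692 CPM in the same pool and at 13.26 to 13.78 CPM in the others. *Ahcyl2*, a gene related to S-adenosylhomocysteine hydrolase, was at 188.9 CPM in XBP1ΔDC replicate 2 and at 165.5 to 166.6 CPM in the others. *Slc7a11*, the cystine transporter gene, was at 1.034 CPM in XBP1ΔDC replicate 3 and at 6.114 to 7.142 CPM in the others. Groups of 3 were not tested, so XBP1ΔDC IRE1truncDC replicate 2 is described with the results.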

How the results depend on the processing

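The direction of each enzyme's difference from control held under the other tests, scalings and filters that were tried. *Phgdh*, *Shmt2*, *Mthfd2*, *Mthfd1l* and *Pck2* were each called under at least 1 alternative, and the other 5 enzymes under none. Genes called in XBP1ΔDC against control numbered 54, and 98 without the fold limit. In XBP1ΔDC IRE1truncDC against control they numbered 23 (7 of them higher), and 94 with DESeq2 (50 of them higher), 39 without the fold limit, 15 with these 2 groups fitted alone and 11 with a replicate block, and 12 to 23 when a pool was left out. Between the deficient lines they numbered 8, and 36 with DESeq2, 3 with a replicate block and 4 to 10 when a pool was left out. Calls among the 10 enzymes went from 0 to 1 in XBP1ΔDC with DESeq2 and with 2 groups fitted alone, and to 5 in XBP1ΔDC IRE1truncDC with DESeq2 and 1 with legacy=FALSE, RLE size factors, library size alone or no filter, and were 0 to 1 in each line when a pool was left out. Enzymes with an unadjusted p under 0.05 between the lines numbered 0 to 3 when a pool was left out. The cause of these shifts was not tested.

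The replicate numbers did not pair the pools, since pools of the same number in XBP1ΔDC and control had a mean correlation of deviations of 0.0979 (0.0418 to 0.133), with 0.0035 and -0.221 in the other comparisons. With the replicate block 0 of the 10 enzymes were called, the adjusted p was above 0.05 for *Asns* (0.103), *Trib3* (0.208) and *Eif4ebp1* (0.0882) in XBP1ΔDC IRE1truncDC and for *Eif2ak3* (0.0688) and *Oat* (0.113) in XBP1ΔDC, all against control, and *Pcx* in XBP1ΔDC IRE1truncDC against control turned from -0.05 to 0.11. Of 2400 log2 fold changes of 40 named genes under alternatives, 37 turned direction, 40 lost and 28 gained a call. Some values turned when a pool was left out. In XBP1ΔDC against control the log2 fold change ran from -0.31 to 0.01 for *Ern1*, -0.02 to 0.17 for *Mthfd1*, -0.25 to 0.01 for *Mtrr*, -0.17 to 0.02 for *Myc* and -0.04 to 0.20 for *Nfe2l2*. In XBP1ΔDC IRE1truncDC against control the log2 fold change ran from -0.07 to 0.09 for *Dld*, -0.09 to 0.12 for *Mcm6*, -0.36 to 0.15 for *Pcx*, -0.33 to 0.07 for *Pgam1* and -0.41 to 0.12 for *Srr*. In XBP1ΔDC IRE1truncDC against XBP1ΔDC the log2 fold change ran from -0.09 to 0.03 for *Ahcyl2*, -0.01 to 0.20 for *Aldh18a1*, -0.12 to 0.56 for *Asns*, -0.10 to 0.33 for *Ddit3*, -0.26 to 0.09 for *Impdh1*, -0.03 to 0.18 for *Mcm6*, -0.02 to 0.24 for *Mthfd1*, -0.58 to 0.04 for *Myc*, -0.06 to 0.34 for *Nfe2l2*, -0.06 to 0.40 for *Pcx*, -0.19 to 0.20 for *Pgam1*, -0.22 to 0.37 for *Phgdh*, -0.29 to 0.38 for *Psat1*, -0.05 to 0.46 for *Shmt1*, -0.01 to 0.37 for *Shmt2*, -0.06 to 0.42 for *Slc1a4*, -0.21 to 0.24 for *Slc25a32* and -0.07 to 1.29 for *Trib3*. Depth left 134 reads or more on each enzyme in each pool, and pools of a genotype differed by more than counting error.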
